A study of Mus musculus with 18 samples.

Results

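The genes described here form a module of 35 members for the synthesis of sterols and fatty acids, out of 19938 genes measured on mouse expression arrays. They were chosen by name. A member was read from the array feature, or probe set, whose only gene symbol in the platform annotation was that member, and of several such probe sets the brightest on average was taken. All 35 members were found, and 31 of them had 1 such probe set. The module holds 6 enzymes of the mevalonate pathway, 8 enzymes that turn squalene and its precursors into cholesterol, 5 genes of sterol sensing and transport, 6 genes that make fatty acids or their building blocks, 6 that elongate or desaturate them, 3 of glycerolipid and phosphatidylcholine synthesis, and Pparg.

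Cholesterol is built from acetyl-CoA through mevalonate, isoprenyl units, squalene and lanosterol, and fatty acids are built from the same precursor through malonyl-CoA. Both branches are controlled by the SREBP transcription factors, which Scap carries out of the endoplasmic reticulum when sterols are low and which Insig proteins hold back when sterols are high. In the lung these pathways are best known in alveolar type 2 cells, which make the lipids of surfactant, while the epithelium of the terminal bronchioles is mostly club and ciliated cells.

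RNA came from terminal bronchiolar epithelial cells of mouse lung, taken 0, 3 or 72 hr after naphthalene, a compound that club cells convert into a toxic product. At each time there were 3 arrays of control mice and 3 of Cebpa d/d mice, 18 in all. Both genotypes were on a mixture of FVB/N and C57BL/6 backgrounds. What drives the deletion of Cebpa, in which cells it acts, the age of the mice and whether an array is 1 animal or a pool are not stated in the labels, so the p-values measure the spread between these arrays, which may be technical.

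Cebpa, the gene named in the genotype, had log2 levels of 7.89, 10.07 and 10.17 in the control arrays at 0 hr, 10.52, 10.30 and 10.32 at 3 hr and 9.69, 9.80 and 9.87 at 72 hr. In Cebpa d/d arrays it was 8.27, 8.11 and 7.83, 8.29, 8.07 and 8.37 and 9.07, 8.55 and 7.90. In replicate 1 of the control arrays at 0 hr Cebpa was thus at the level of the Cebpa d/d arrays, against its label. Passing differences of the members from 0 hr and their genotype counts are therefore given below also without it. Those of other genes are given with all arrays only. Replicate 1 of the Cebpa d/d arrays at 72 hr had the highest Cebpa level of its genotype. All 6 arrays at 72 hr had Xist, the RNA of the inactive X chromosome, at 10.07 or more, against 1 of 3 arrays in each group at 0 and 3 hr, so female sex and the 72 hr time point cannot be told apart from group means alone. Across 10 cardiac muscle markers the mean log2 level was 10.35 to 11.24 in Cebpa d/d arrays at 0 hr, 7.59 to 9.33 in control arrays at 0 hr, and at most 8.49 in every other group. Of the fat cell markers, Fabp4 was also high in all Cebpa d/d arrays at 0 hr, at 10.04, 9.19 and 8.39 against at most 8.08 in the other groups. Adipoq was high in replicates 1 and 2 of these arrays, at 7.92 and 7.29. In replicate 3 it was 5.53, and in the other groups it was at most 6.15. Scgb1a1, the defining secretory protein of club cells, was at 12.55 to 12.98 in all 18 arrays, and Sftpc, which defines alveolar type 2 cells, was at 12.96 to 13.31, so transcripts of both cell types were present throughout. In such bulk RNA, fewer cells of a type and less RNA per cell cannot be told apart.

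**Figure D1:**
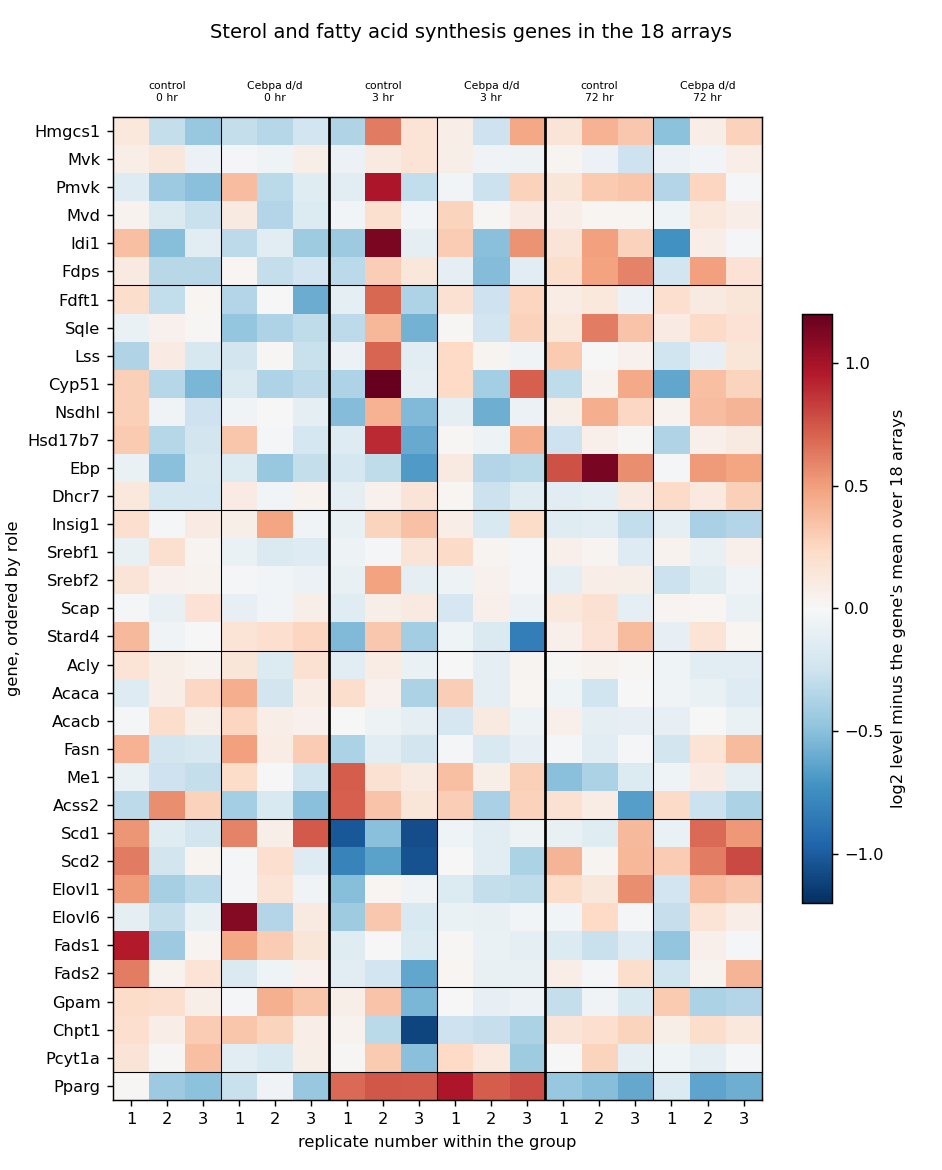
Log2 level of each of the 35 members in each of the 18 arrays, minus that gene's mean over all arrays (colour scale), with genes in rows ordered by role and arrays in columns by time, genotype and replicate number. Pparg was high in all 6 arrays at 3 hr, Scd1 and Scd2 were low in the 3 control arrays at 3 hr, Ebp was high at 72 hr, and control 3 hr replicate 2 was high across the sterol enzymes.

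Values are log2 units on the scale of the robust multi-array average (RMA), so a difference of 1 is a doubling, and a level can be compared between arrays for 1 gene but not between genes. A difference is given with its standard error from 1 limma model of the 6 groups of 3 arrays, and it passed when the adjusted p, corrected over all 19938 genes within that comparison, was under 0.05. Of the 35 members, 11 passed in at least 1 of the 13 comparisons made and 24 passed in none. The same share of all genes is not given here. From 3 to 72 hr alone, averaged over genotypes, 26.7% of all genes passed. The count of 11 is thus not read as a result about the module. All passing differences of the members, 24 in number, were between times. No member passed between the genotypes with all arrays in the fit.

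At 3 hr after naphthalene, with both genotypes averaged, Pparg and Me1 were higher than at 0 hr and Scd1, Scd2 and Chpt1 were lower. These are 5 of 35 members, or 14.3%, beside 12.7% of all genes that passed in this comparison, so the module changed about as often as the array as a whole. Without control 0 hr replicate 1 the same 5 members passed, beside 10.2% of all genes. The median difference of the 35 members was -0.02, against 0.01 for all genes.

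Pparg, a nuclear receptor that drives fat cell formation and lipid storage, had the largest change of the module. In control arrays its log2 level was 8.86, 8.42 and 8.35 at 0 hr, 9.53, 9.59 and 9.58 at 3 hr and 8.39, 8.33 and 8.23 at 72 hr. Cebpa d/d arrays gave 8.58, 8.81 and 8.39 at 0 hr, 9.82, 9.57 and 9.63 at 3 hr and 8.68, 8.22 and 8.26 at 72 hr. All 6 arrays at 3 hr lay above all 12 arrays at 0 and 72 hr. The rise from 0 to 3 hr was 1.02 ± 0.14 (adjusted p = 0.00108) in controls and 1.08 ± 0.14 (adjusted p = 0.00027) in Cebpa d/d mice. The averaged rise was 1.05 ± 0.10 (adjusted p = 6.55e-06), a fold of 2.07, and without control 0 hr replicate 1 it was 1.13 ± 0.09, with 1.18 ± 0.14 in controls. By 72 hr Pparg had fallen by 1.27 ± 0.10 from its 3 hr level (adjusted p = 3.53e-07), and its difference from 0 hr was -0.21 ± 0.10 (adjusted p = 0.176). The rise in Cebpa d/d mice exceeded that in controls by 0.06, with a 95% interval of -0.37 to 0.49, which includes 0. Adding the mean cardiac marker level of each array to the model left the averaged rise past the threshold at 1.28 ± 0.22 (adjusted p = 0.0203), while the rise within Cebpa d/d mice became 1.43 ± 0.32 (adjusted p = 0.292). That level was highest in the Cebpa d/d group at 0 hr, so the model separates the 2 poorly and standard errors from 0 hr grow. In this fit 62 of all genes passed from 0 to 3 hr and 32 from 0 to 72 hr, averaged over genotypes, against 2527 and 3097 without it. Calls were thus lost across the whole array in this fit. Why a given member lost its call in it, here or below, was not tested. Of 9 fat cell markers, Adipoq and Fabp4 fell from 0 to 3 hr with genotypes averaged, by 0.95 ± 0.30 and 0.91 ± 0.23 (adjusted p = 0.0447 and 0.0167). Ucp1 rose by 0.60 ± 0.15 (adjusted p = 0.0125) and 6 did not pass, beside 12.7% of all genes that passed. Within Cebpa d/d mice Adipoq and Fabp4 changed by -1.66 ± 0.42 and -1.57 ± 0.33 (adjusted p = 0.0331 and 0.0107), and 7 did not pass, beside 4.38% of all genes. In controls 0 of the 9 passed by limma, beside 3.5% of all genes, and the lowest difference was -0.25.

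Scd1 and Scd2 encode stearoyl-CoA desaturases, which place the double bond in the most abundant monounsaturated fatty acids. Scd1 in control arrays was 12.00, 11.32 and 11.24 at 0 hr, 10.45, 10.96 and 10.41 at 3 hr and 11.38, 11.33 and 11.86 at 72 hr. The 3 control arrays at 3 hr were the lowest of all 18, each under 11. The Cebpa d/d values were 12.06, 11.54 and 12.20 at 0 hr, 11.42, 11.33 and 11.41 at 3 hr and 11.39, 12.15 and 11.98 at 72 hr. Here the 3 hr arrays lay below all 3 arrays at 0 hr and overlapped those at 72 hr. The averaged fall to 3 hr was -0.73 ± 0.17 (adjusted p = 0.00847), made up of -0.91 ± 0.24 (adjusted p = 0.0431) in controls and -0.55 ± 0.24 (adjusted p = 0.233) in Cebpa d/d mice. With the array labelled control 0 hr replicate 1, the highest of its group, left out, the control change was -0.67 ± 0.23 (adjusted p = 0.161) and the averaged one was -0.61 ± 0.16 (adjusted p = 0.0213). The control change of Scd1 missed the threshold in 10 of the 18 fits that left out 1 array.

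Scd2 in control arrays was 8.72, 7.88 and 8.13 at 0 hr, 7.29, 7.45 and 7.05 at 3 hr and 8.51, 8.13 and 8.50 at 72 hr. For Cebpa d/d mice the levels were 8.08, 8.30 and 7.94 at 0 hr, 8.10, 7.97 and 7.72 at 3 hr and 8.40, 8.71 and 8.89 at 72 hr. As with Scd1, the 3 control arrays at 3 hr were the lowest of all 18, but in Cebpa d/d mice the 3 hr arrays overlapped those at 0 hr. The fall to 3 hr was -0.98 ± 0.19 (adjusted p = 0.0114) in controls and -0.18 ± 0.19 (adjusted p = 0.715) in Cebpa d/d mice, and the test of the difference between those falls gave 0.80 ± 0.27 (unadjusted p = 0.00914, adjusted p = 0.634), which did not pass. The control fall was -0.74 ± 0.17 (adjusted p = 0.0452) without the array that went against its label. Averaged over genotypes the fall was -0.58 ± 0.14 (adjusted p = 0.00981), and -0.46 ± 0.12 (adjusted p = 0.0194) without it. Both desaturases then rose from 3 to 72 hr, Scd1 by 0.69 ± 0.17 (adjusted p = 0.00575) and Scd2 by 0.93 ± 0.14 (adjusted p = 0.000106). With the cardiac marker level in the model, the averaged falls to 3 hr were -0.57 ± 0.37 for Scd1 and -0.49 ± 0.30 for Scd2 (adjusted p = 0.583 and 0.557), whereas the rises to 72 hr were 0.71 ± 0.18 and 0.94 ± 0.14 and still passed.

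**Figure D2:**
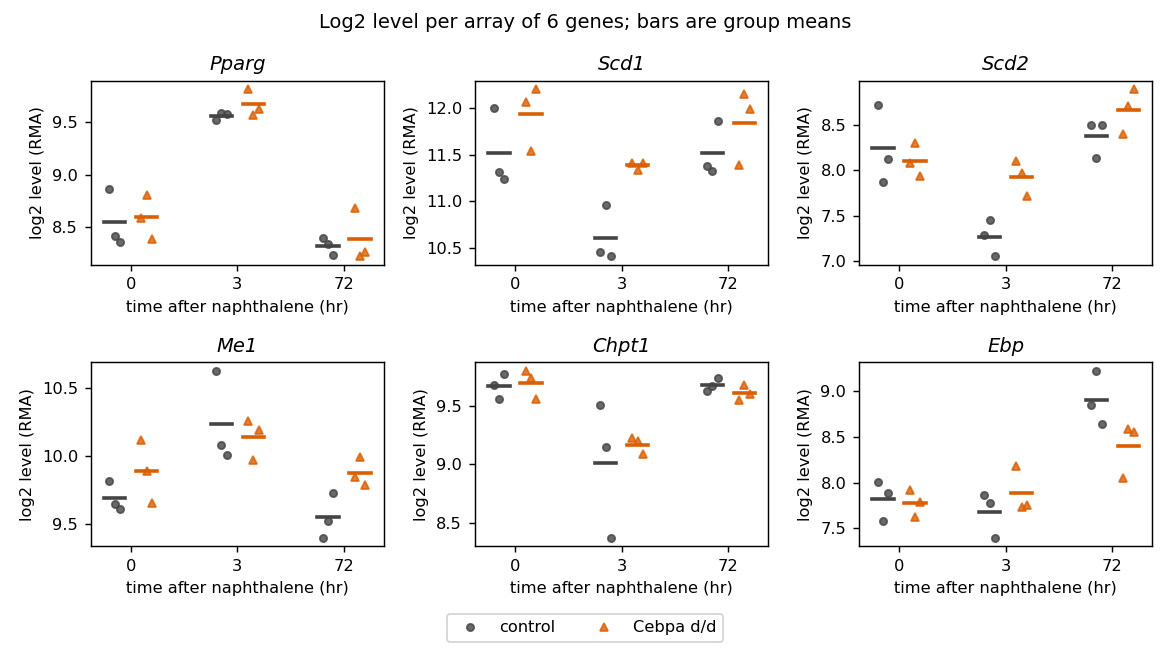
Log2 level per array (points, vertical axis) of 6 members at 0, 3 and 72 hr after naphthalene (horizontal axis) in control and Cebpa d/d mice, with a bar at each group mean of 3 arrays. Pparg peaked at 3 hr in both genotypes, Chpt1 dipped at 3 hr in both, and the 3 control arrays at 3 hr were the lowest of all for Scd1 and Scd2.

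Chpt1 encodes cholinephosphotransferase, which makes phosphatidylcholine, the main lipid of surfactant. Its control levels were 9.68, 9.56 and 9.78 at 0 hr, 9.51, 9.15 and 8.37 at 3 hr and 9.63, 9.67 and 9.74 at 72 hr. Its Cebpa d/d levels were 9.80, 9.74 and 9.56 at 0 hr, 9.22, 9.20 and 9.09 at 3 hr and 9.55, 9.68 and 9.60 at 72 hr. All 6 arrays at 3 hr lay below the other 12, with control 3 hr replicate 3 far below the rest of its group. The fall to 3 hr was -0.60 ± 0.13 (adjusted p = 0.00697) and the return to 72 hr was 0.56 ± 0.13 (adjusted p = 0.00481). When each of the 18 arrays was left out in turn, the fall ranged from -0.72 to -0.44 and passed every time, and it was -0.59 ± 0.14 without control 0 hr replicate 1. With the cardiac marker level in the model the fall was -0.76 ± 0.29 (adjusted p = 0.329) and missed the threshold, and the return was 0.46 ± 0.16 (adjusted p = 0.0653) with a sex covariate, the difference of Xist and the Y-linked Eif2s3y, and missed it too. Markers of alveolar type 2 cells, which secrete this lipid, had a mean level over 12 markers of 9.76 to 9.93 in arrays at 3 hr and 9.85 to 10.63 in the others. Of the 12, all had an averaged difference below 0 from 0 to 3 hr, and 1 (Sftpa1) passed, beside 12.7% of all genes. From 3 to 72 hr 7 rose, beside 26.7% of all genes. Their part in the Chpt1 change was not tested.

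Me1, the cytosolic malic enzyme that supplies NADPH for fatty acid synthesis, went the other way. In control arrays it was 9.81, 9.65 and 9.61 at 0 hr, 10.63, 10.08 and 10.01 at 3 hr and 9.40, 9.52 and 9.73 at 72 hr. Levels in Cebpa d/d arrays were 10.12, 9.89 and 9.66 at 0 hr, 10.26, 9.97 and 10.19 at 3 hr and 9.85, 10.00 and 9.79 at 72 hr. Control arrays at 3 hr lay above all other control arrays, while the Cebpa d/d arrays at 0 and 3 hr overlapped. The averaged rise was 0.40 ± 0.11 (adjusted p = 0.0222) and the fall from 3 to 72 hr was -0.47 ± 0.11 (adjusted p = 0.00357). Its dimmer probe set gave 0.45 and -0.43 for the same comparisons. The rise missed the threshold in 4 of the 18 fits that left out 1 array, with values from 0.30 to 0.45, and the fall missed it in none. The rise was 0.43 ± 0.11 without control 0 hr replicate 1 and 0.71 ± 0.22 (adjusted p = 0.237) with the cardiac marker level in the model.

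At 72 hr the averaged comparison with 0 hr had 4 passing members, Fdps, Sqle and Ebp higher and Insig1 lower. That is 11.4% of the module, beside 15.5% of all genes. Against 3 hr there were 10, with Fdps, Nsdhl, Ebp, Scd1, Scd2, Elovl1 and Chpt1 higher and Insig1, Me1 and Pparg lower, or 28.6% beside 26.7% of all genes. The first share was below that of the whole array and the second was near it. Without control 0 hr replicate 1 there were 5 from 0 hr (beside 15.6% of all genes), where Sqle dropped out and Scd2 and Elovl1 came in, and 11 from 3 hr (beside 28.3%), with Stard4 added. The 3 time comparisons share arrays and are not independent of each other.

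Ebp, the sterol isomerase that follows lanosterol demethylation and a gene on the X chromosome, had the largest rise of the module from 0 to 72 hr. In control arrays it was 8.00, 7.58 and 7.89 at 0 hr, 7.87, 7.78 and 7.39 at 3 hr and 8.84, 9.22 and 8.64 at 72 hr. Cebpa d/d arrays gave 7.92, 7.63 and 7.79 at 0 hr, 8.18, 7.73 and 7.76 at 3 hr and 8.05, 8.59 and 8.56 at 72 hr. The 3 control arrays at 72 hr were the highest of all 18, and in Cebpa d/d mice the 72 hr arrays lay above those at 0 hr but overlapped those at 3 hr through replicate 1. The rise from 0 to 72 hr was 1.08 ± 0.18 (adjusted p = 0.00239) in controls, 0.62 ± 0.18 (adjusted p = 0.0659) in Cebpa d/d mice and 0.85 ± 0.13 (adjusted p = 0.00033) on average. Without control 0 hr replicate 1 it was 1.17 ± 0.21 in controls and 0.90 ± 0.14 on average. The averaged rise from 3 hr was 0.86 ± 0.13 (adjusted p = 0.000143). Because all 72 hr arrays had high Xist, the 4 earlier arrays with high Xist were read on their own, and Ebp there was 7.89 and 7.92 at 0 hr and 7.78 and 7.73 at 3 hr, below each of the 6 arrays at 72 hr. With the sex covariate the rise from 0 hr was 0.82 ± 0.16 (adjusted p = 0.00524). It was 0.76 ± 0.32 (adjusted p = 0.408) with the cardiac marker level in the model.

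Sqle, the squalene monooxygenase that commits squalene to sterols, was 9.03, 9.17 and 9.12 at 0 hr, 8.80, 9.51 and 8.54 at 3 hr and 9.23, 9.73 and 9.45 at 72 hr in control arrays. It was 8.65, 8.74 and 8.81 at 0 hr, 9.13, 8.88 and 9.39 at 3 hr and 9.21, 9.34 and 9.29 at 72 hr in Cebpa d/d arrays. All 6 arrays at 72 hr lay above all 6 at 0 hr, while those at 3 hr spread across both. The rise from 0 to 72 hr was 0.46 ± 0.13 (adjusted p = 0.0281), and 0.44 ± 0.14 (adjusted p = 0.0519) without control 0 hr replicate 1. With the cardiac marker level in the model it was 0.19 ± 0.32 (adjusted p = 0.924). Fdps, which makes farnesyl diphosphate, was 8.17, 7.74 and 7.74 at 0 hr, 7.75, 8.36 and 8.21 at 3 hr and 8.28, 8.56 and 8.66 at 72 hr in control arrays. The Cebpa d/d values were 8.09, 7.78 and 7.83 at 0 hr, 7.96, 7.55 and 7.93 at 3 hr and 7.84, 8.56 and 8.24 at 72 hr. Only in controls were the 72 hr arrays clear of the 0 hr arrays, since replicate 1 of the Cebpa d/d group at 72 hr was at its 0 hr level. The averaged rise was 0.46 ± 0.14 (adjusted p = 0.0291) from 0 hr and 0.40 ± 0.14 (adjusted p = 0.0404) from 3 hr. The rise from 0 hr was 0.54 ± 0.14 (adjusted p = 0.015) without control 0 hr replicate 1 and 0.82 ± 0.32 (adjusted p = 0.366) with the cardiac marker level.

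Nsdhl, a dehydrogenase of sterol demethylation and, like Ebp, a gene on the X chromosome, differed from 3 to 72 hr by 0.50 ± 0.15 (adjusted p = 0.0224). In the earlier arrays with high Xist it was 7.88 and 8.09 at 0 hr and 8.55 and 7.55 at 3 hr. Its control levels were 8.41, 8.09 and 7.88 at 0 hr, 7.61, 8.55 and 7.60 at 3 hr and 8.20, 8.57 and 8.38 at 72 hr. Its Cebpa d/d levels were 8.09, 8.13 and 8.02 at 0 hr, 8.01, 7.55 and 8.06 at 3 hr and 8.18, 8.50 and 8.54 at 72 hr. In Cebpa d/d mice all 3 arrays at 72 hr lay above those at 3 hr, while in controls replicate 2 at 3 hr reached the 72 hr level. Elovl1, which elongates saturated fatty acids to very long chains, rose by 0.44 ± 0.15 (adjusted p = 0.0382) over the same interval. It was 11.21, 10.31 and 10.38 at 0 hr, 10.19, 10.73 and 10.66 at 3 hr and 10.92, 10.84 and 11.26 at 72 hr in control arrays. For Cebpa d/d mice the levels were 10.68, 10.87 and 10.66 at 0 hr, 10.54, 10.41 and 10.40 at 3 hr and 10.47, 11.08 and 11.02 at 72 hr. Control arrays at 72 hr lay above those at 3 hr, and replicate 1 of the Cebpa d/d arrays at 72 hr fell among those at 3 hr.

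Insig1, the protein that retains Scap and so restrains SREBP activation, was the member of the sensing group that passed. In control arrays its log2 level was 8.68, 8.46 and 8.57 at 0 hr, 8.38, 8.74 and 8.83 at 3 hr and 8.33, 8.35 and 8.18 at 72 hr. Levels in Cebpa d/d arrays were 8.54, 8.94 and 8.43 at 0 hr, 8.56, 8.29 and 8.70 at 3 hr and 8.36, 8.08 and 8.13 at 72 hr. All 6 arrays at 72 hr were below all 6 at 0 hr. The fall was -0.37 ± 0.10 (adjusted p = 0.0222) from 0 hr and -0.34 ± 0.10 (adjusted p = 0.0198) from 3 hr. The fall from 0 hr was -0.34 ± 0.11 (adjusted p = 0.0469) without control 0 hr replicate 1 and -0.31 ± 0.25 (adjusted p = 0.755) with the cardiac marker level.

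Leaving out 1 array ended the call in 8 of 18 fits for Fdps from 0 hr and 7 from 3 hr, 8 for Elovl1, 6 for Nsdhl, 5 for Sqle, and 4 and 3 for Insig1, and in 0 for Ebp, Pparg and Chpt1. With the sex covariate, all genes passing at 72 hr went from 3097 to 1654 against 0 hr and from 5321 to 3229 against 3 hr. Of the members, 1 (Ebp) was left of 4 from 0 hr and 5 (Ebp, Me1, Pparg, Scd1 and Scd2) of 10 from 3 hr. None of the first 5 genes above passed in these comparisons with this covariate. Their values with it were 0.46 ± 0.17 and 0.40 ± 0.17 for Fdps, 0.40 ± 0.16 for Sqle, 0.49 ± 0.19 for Nsdhl, 0.48 ± 0.19 for Elovl1, and -0.31 ± 0.13 and -0.29 ± 0.13 for Insig1, so the sizes stayed close to those above and the standard errors grew. Passing from 0 hr without control 0 hr replicate 1 were also Scd2 at 0.47 ± 0.12 (adjusted p = 0.0121) and Elovl1 at 0.39 ± 0.12 (adjusted p = 0.0387).

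Other markers moved at 72 hr in the same arrays. The mean of 8 macrophage markers was 7.83 to 8.42 in control arrays at 72 hr and 7.14 to 7.98 in Cebpa d/d arrays, against 6.91 to 7.58 in all arrays at 0 and 3 hr. The mean of 8 club cell markers was 11.13 to 11.24 in control arrays at 72 hr and 11.19 to 11.87 in Cebpa d/d arrays, against 11.48 to 12.11 in the earlier arrays. Cebpa d/d 72 hr replicate 1 was within the earlier range for both lists, at 7.14 for macrophage and 11.87 for club cell markers. Replicates 2 and 3 were outside it, at 7.98 and 7.85 and at 11.19 and 11.34. Ciliated cell markers had a mean over 8 markers of 9.02 to 9.41 at 72 hr against 8.26 to 9.14 earlier. Of the 8, 5 rose from 0 hr, beside 15.5% of all genes, and 6 from 3 hr, beside 26.7%. For smooth muscle and fibroblasts, the mean of 9 markers was 9.63 to 10.18 at 72 hr against 9.47 to 9.87 at 3 hr. Between these times 5 of the 9 rose, beside 26.7% of all genes. Before injury, though, the range had been 9.83 to 10.02, which lies inside that of the 72 hr arrays. Compared with 0 hr, 1 of the 9 (Col1a1) passed, beside 15.5% of all genes. The part of all these markers in the lipid gene differences was not tested.

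**Figure D3:**
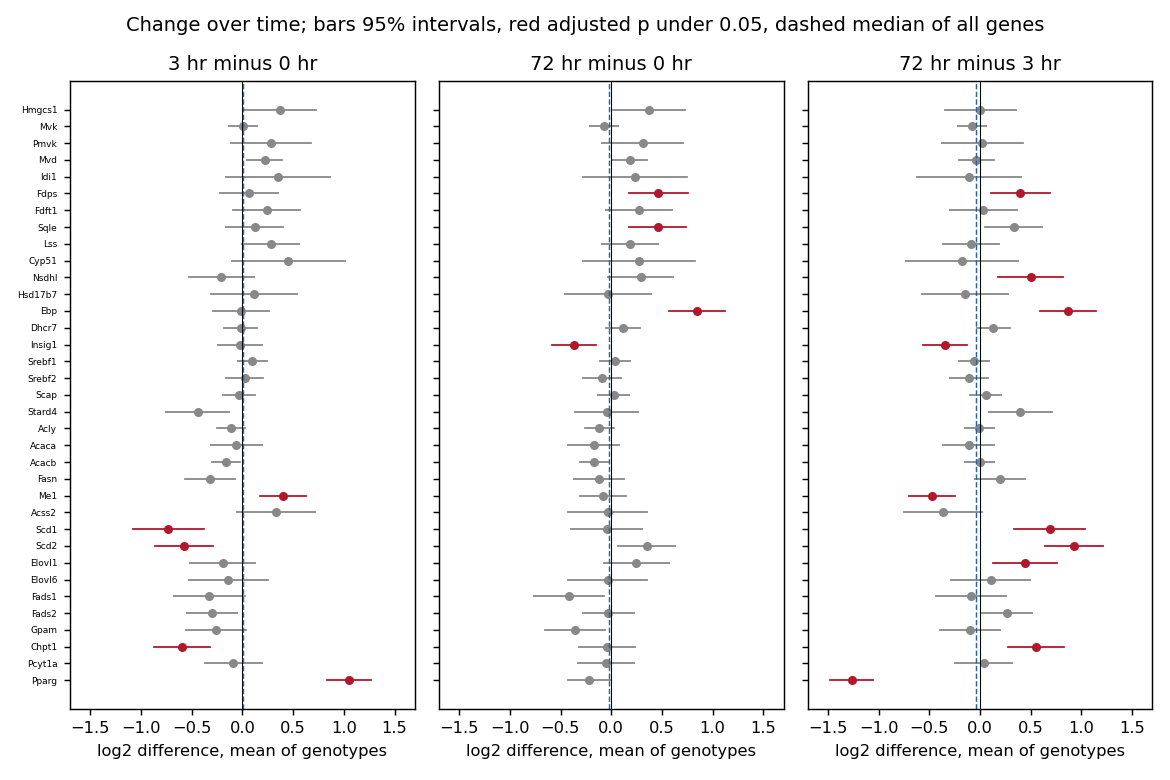
Log2 difference between times (horizontal axis), averaged over genotypes, for the 35 members in order of role (vertical axis), with 95% intervals. Red marks an adjusted p under 0.05, grey marks the rest, and the dashed line is the median of all 19938 genes, which lies within 0.05 of 0 in each panel. Pparg moved from 1.05 at 3 hr to -1.27 between 3 and 72 hr, and 12 of the 14 sterol enzymes lay to the right of 0 in the comparison of 72 with 0 hr, with 3 of the 14 past the threshold, beside 15.5% of all genes.

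Within a genotype, fewer members passed. From 0 to 3 hr there were 3 in controls (Pparg, Scd1 and Scd2, 8.57% beside 3.5% of all genes) and 1 in Cebpa d/d mice (Pparg, 2.86% beside 4.38%). From 0 to 72 hr there was 1 in controls (Ebp, beside 7.15% of all genes) and 0 by limma in Cebpa d/d mice (beside 4.8%), where 5 members had an unadjusted p under 0.05, beside 17.5% of all genes. Without control 0 hr replicate 1 the counts were 2 (Pparg and Scd2, beside 1.55% of all genes) and 1 (Pparg, beside 4.99%) at 3 hr, and 3 (Ebp, Fdps and Elovl1, beside 6.93%) and 1 (Scd2 at 0.56 ± 0.15 (adjusted p = 0.0449), beside 5.55%) at 72 hr.

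The difference between genotypes in the change over time was tested for each member by limma. At 3 hr 0 members passed that test, beside 0% of all genes, with 2 at an unadjusted p under 0.05 (Scd2 and Fads2, beside 6.85% of all genes), and at 72 hr 0 passed, beside 0.0953% of all genes, with 0 at an unadjusted p under 0.05, beside 4.47%. Without control 0 hr replicate 1 again 0 passed at either time by limma, beside 0% and 0.015% of all genes. At an unadjusted p under 0.05 there were then 4 at 3 hr (Scd2, Dhcr7, Srebf1 and Fads1, beside 6.66%) and 3 at 72 hr (Elovl1, Fads1 and Acss2, beside 6.54%).

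Between genotypes at a given time, 0 of the 35 members passed by limma at 0, 3 or 72 hr or in the mean over times. All genes passed in 0.336%, 0.015%, 0.0702% and 0.306% of cases, so few calls were made on any gene. Cebpa itself differed by -1.31, -2.14 and -1.28 at 0, 3 and 72 hr and did not pass (adjusted p = 0.309, 0.152 and 0.609). Without control 0 hr replicate 1 it passed at each time (adjusted p = 0.000696, 0.000186 and 0.0144). At an unadjusted p under 0.05 there were 0, 2, 3 and 2 members, beside 8.53%, 5.02%, 6.31% and 8.57% of all genes, which is below the background at 0 hr and near it elsewhere. At 3 hr these were the desaturases, both with all 3 Cebpa d/d arrays above all 3 control arrays: Scd1 differed by 0.78 ± 0.24 (adjusted p = 0.756) and Scd2 by 0.66 ± 0.19 (adjusted p = 0.711). At 72 hr they were Ebp, lower in Cebpa d/d mice at -0.50 ± 0.18 (adjusted p = 0.715), Dhcr7, the last enzyme of cholesterol synthesis, higher at 0.26 ± 0.11 (adjusted p = 0.762), and Me1, higher at 0.33 ± 0.15 (adjusted p = 0.788).

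The 0 hr comparison changed without control 0 hr replicate 1. Although 0 members passed at 0, 3 or 72 hr by limma, beside 0.767%, 0.0752% and 0.1% of all genes, 7 were then at an unadjusted p under 0.05 at 0 hr, beside 9.58% of all genes. Higher in Cebpa d/d mice were Fasn (0.50 ± 0.15), Fads1 (0.50 ± 0.15), Scd1 (0.65 ± 0.23), Elovl1 (0.39 ± 0.18) and Dhcr7 (0.25 ± 0.11), and lower were Acss2 (-0.78 ± 0.26) and Srebf1 (-0.25 ± 0.10), with adjusted p from 0.166 to 0.511. At 3 and 72 hr there were 2 and 3, beside 5.51% and 7.03%, and in the mean over times 5 (Scd1, Scd2, Fasn, Fads1 and Acss2), beside 9.71%.

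Scd1 was the closest to a call between genotypes. Levels in Cebpa d/d mice exceeded those in controls by 0.41 before injury, 0.78 at 3 hr and 0.32 by 72 hr, and the mean over times was 0.50 ± 0.14 (adjusted p = 0.171). Leaving out the array that went against its label gave a mean difference of 0.58 ± 0.13 (adjusted p = 0.0382), and Scd1 was then the 1 member that passed, beside 1.01% of all genes. Cebpa itself differed by -1.58 ± 0.24 (adjusted p = 0.00953) with all arrays. Cebpa d/d 72 hr replicate 1 was then left out as well, a choice made after seeing the data. Scd1 was at 0.66 ± 0.11, Scd2 at 0.40 ± 0.09 and Fasn, the fatty acid synthase, at 0.32 ± 0.07 (adjusted p = 0.00969, 0.0456 and 0.0292). Of all genes 228 passed in that fit, against 61 with all arrays. The Cebpa d/d array left out was the lowest of its group for Scd1 (11.39), Scd2 (8.40) and Fasn (7.83). Leaving it out thus raises these differences by itself, and no genotype effect is read from them. With the cardiac marker level in the model the Scd1 difference was 0.43 ± 0.20 (adjusted p = 0.9997). The other member at an unadjusted p under 0.05 with all arrays was Scd2, at 0.27 ± 0.11 (adjusted p = 0.457). Its 95% interval was 0.04 to 0.51, beside -0.00 to 0.40 for Fasn, -0.15 to 0.09 for Srebf1, -0.28 to 0.02 for Srebf2, -0.44 to 0.13 for Hmgcs1 and -0.10 to 0.25 for Pparg.

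**Figure D4:**
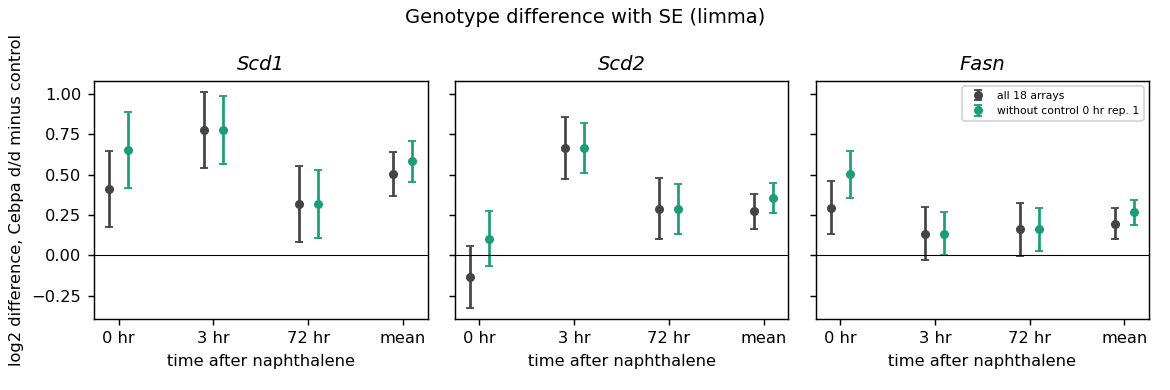
Log2 difference between Cebpa d/d and control arrays (vertical axis, with SE from limma) at each time and as the mean of times (horizontal axis) for Scd1, Scd2 and Fasn, with all 18 arrays and without the one labelled control 0 hr replicate 1. The Scd1 mean was 0.50 with all arrays and 0.58 without that array, and all its points lay above 0.

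Most sterol enzymes varied more between arrays of the same group than the average gene. The median within-group standard deviation was 0.28 for the 14 enzymes and 0.25 for the 15 fatty acid and glycerolipid genes, against 0.15 for all genes, and Cyp51, the lanosterol demethylase, stood at percentile 99.1 of all genes with 0.53. Mvk, Dhcr7 and Mvd, at percentiles 15.4, 38.3 and 46.0, did not vary widely. In the control 3 hr group, replicate 2 was the highest of 3 arrays for 11 of 14 enzymes, where it was highest for 28.5% of all genes. Cyp51 there was 7.41, 8.98 and 7.68. Idi1, which isomerises isopentenyl diphosphate, was 6.96, 8.52 and 7.29 and Hmgcs1, the synthase that opens the mevalonate pathway, was 8.29, 9.27 and 8.82.

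Other groups also held an array that was highest or lowest for most of these enzymes. The array labelled control 0 hr replicate 1 was the highest of its group for 11 of 14 enzymes, against 36.0% of all genes. Replicate 2 of the Cebpa d/d group at 3 hr was the lowest for 12 of 14, against 36.2% of all genes, with Cyp51 at 8.02, 7.38 and 8.51 and Idi1 at 7.70, 6.89 and 7.94. Replicate 1 of the Cebpa d/d group at 72 hr was also the lowest for 12 of 14, against 33.9% of all genes, with Cyp51 at 7.16, 8.14 and 8.05 and Idi1 at 6.67, 7.47 and 7.37. The 15 fatty acid and glycerolipid genes shifted likewise in some arrays, with replicate 1 of the Cebpa d/d group at 3 hr the highest for 12 of 15, against 32.2% of all genes, and control 3 hr replicate 3 the lowest for 11 of 15, against 33.5%. These arrays were singled out after their values were seen, and no test was made of them. Both replicates 2 at 3 hr had high Xist, 1 with high and 1 with low sterol enzymes. The mean level of the 14 enzymes spanned 7.41 to 8.17 within the control 3 hr group and 7.38 to 7.80 within the Cebpa d/d 3 hr group.

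**Figure D5:**
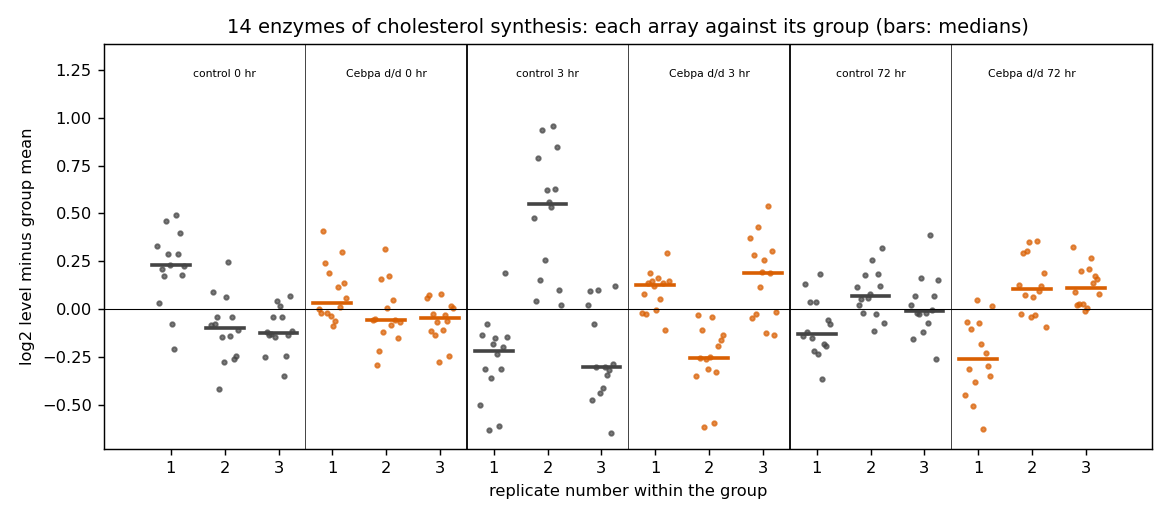
Log2 level minus the group mean (vertical axis) for the 14 enzymes of cholesterol synthesis (points) in each of the 18 arrays (horizontal axis, by time, genotype and replicate number), with a bar at the median. Most enzymes lay on the same side of the group mean in some arrays: control 3 hr replicate 2 lay above its group, and Cebpa d/d 3 hr replicate 2 and 72 hr replicate 1 lay below theirs.

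Promoters of the members were read next. The stretch from 250 bases before to 50 bases after the start of each gene was available for 28 of the 35 members from RefSeq on build GRCm38.p6. Hmgcs1 (chr13:119690101-119690400 on the plus strand), Idi1 (chr13:8885356-8885655 on the plus strand) and Cyp51 (chr5:4104648-4104947 on the minus strand) are shown as the enzymes whose arrays are given above, Ebp (chrX:8193463-8193762 on the minus strand) for its rise at 72 hr and Me1 (chr9:86695865-86696164 on the minus strand) for its rise at 3 hr. Capitals mark a CCAAT box on either strand, so also ATTGG, and in addition the sterol regulatory element TCACNCCAC in Hmgcs1 and the antioxidant response element TGACNNNGC in Me1. The window of Me1 shown holds no CCAAT box, which was found in another window of that gene. No marked motif overlaps another.
Hmgcs1: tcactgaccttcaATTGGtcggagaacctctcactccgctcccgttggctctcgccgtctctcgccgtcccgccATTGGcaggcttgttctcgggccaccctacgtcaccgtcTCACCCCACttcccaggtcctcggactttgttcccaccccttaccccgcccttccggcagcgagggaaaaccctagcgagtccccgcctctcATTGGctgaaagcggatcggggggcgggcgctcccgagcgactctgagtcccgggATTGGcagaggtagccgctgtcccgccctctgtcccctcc
Idi1: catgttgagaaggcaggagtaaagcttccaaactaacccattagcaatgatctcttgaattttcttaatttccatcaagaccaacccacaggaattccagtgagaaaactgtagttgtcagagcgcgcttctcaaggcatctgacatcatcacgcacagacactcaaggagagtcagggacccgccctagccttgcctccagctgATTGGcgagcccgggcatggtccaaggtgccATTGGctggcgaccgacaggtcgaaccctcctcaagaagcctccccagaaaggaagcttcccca
Cyp51: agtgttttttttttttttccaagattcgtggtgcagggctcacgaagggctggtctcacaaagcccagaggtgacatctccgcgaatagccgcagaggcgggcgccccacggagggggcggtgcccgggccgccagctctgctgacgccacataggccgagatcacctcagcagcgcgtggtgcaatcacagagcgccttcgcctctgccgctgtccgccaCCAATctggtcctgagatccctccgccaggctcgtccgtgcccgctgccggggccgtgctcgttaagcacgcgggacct
Ebp: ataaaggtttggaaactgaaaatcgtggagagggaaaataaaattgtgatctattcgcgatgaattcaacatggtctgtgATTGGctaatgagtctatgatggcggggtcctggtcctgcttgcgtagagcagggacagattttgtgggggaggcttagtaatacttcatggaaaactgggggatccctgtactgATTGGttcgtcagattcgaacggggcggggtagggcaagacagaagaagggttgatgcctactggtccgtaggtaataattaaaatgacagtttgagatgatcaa
Me1: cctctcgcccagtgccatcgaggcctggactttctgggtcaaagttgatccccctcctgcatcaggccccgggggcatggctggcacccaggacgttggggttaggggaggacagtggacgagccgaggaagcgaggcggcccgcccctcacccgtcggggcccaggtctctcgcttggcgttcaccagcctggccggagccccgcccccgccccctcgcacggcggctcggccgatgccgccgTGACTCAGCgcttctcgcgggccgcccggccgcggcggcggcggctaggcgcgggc

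The search covered both strands, and a match is a description of the letters only. The CCAAT box was found in 23 of 28 members, or 82.1%, against 41.7% of 15614 genes, and the GC box GGGCGG in 23 of 28 against 52.9%. Genes with several start sites had several windows. The sterol regulatory element, the classical binding sequence of SREBP, was in 2 of 28 (Hmgcs1, at position -137 relative to the start, and Pcyt1a) against 1.4%. The antioxidant response element was in 8 of 28 against 15.2%, and the E-box CACGTG in 4 against 9.5%. The half-palindrome TTGCNNAA, bound by C/EBP factors, was in 4 of 28 (Nsdhl, Dhcr7, Gpam and Pparg) against 11.3%. Among genes with 1 window the CCAAT box was in 16 of 19 members against 38.7% of genes, the GC box in 15 against 49.3%, the sterol regulatory element in 1 against 1.1%, the antioxidant response element in 3 against 13.2%, the E-box in 2 against 8.3% and the C/EBP sequence in 1 against 9.7%. No difference between these shares was tested.

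The 24 members that passed nowhere included most of both branches. In the mevalonate pathway, the averaged differences from 0 to 3 hr were 0.37 for Hmgcs1, 0.01 for the kinase Mvk, 0.28 for Pmvk, 0.22 for the decarboxylase Mvd and 0.35 for Idi1. From 0 to 72 hr they were 0.37, -0.07, 0.31, 0.18 and 0.24. The median of the 6 enzymes of this step, Fdps included, was 0.25 and 0.27, with 6 and 5 of them above 0. Both intervals for Hmgcs1 (0.02 to 0.72 at 3 hr and 0.02 to 0.73 at 72 hr) lay just above 0 before correction (adjusted p = 0.171 and 0.151).

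Past squalene, the averaged differences from 0 hr at 3 and 72 hr were 0.24 and 0.27 for the squalene synthase Fdft1, 0.28 and 0.18 for the lanosterol synthase Lss, and 0.45 and 0.27 for Cyp51. They were 0.11 and -0.04 for the sterol ketoreductase Hsd17b7 and -0.02 and 0.11 for Dhcr7. The interval for Cyp51 at 3 hr, -0.10 to 1.01, shows how little the spread between arrays allowed to be said of it. Dimmer second probe sets gave 0.37 and 0.47 for Fdft1 and, in the mevalonate pathway, 0.42 and 0.36 for Idi1. The 8 enzymes of this step had a median of 0.12 at 3 hr and 0.27 at 72 hr.

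Among the sensors, neither SREBP gene nor the escort gene Scap passed at any time. The averaged differences from 0 hr at 3 and 72 hr were 0.10 and 0.04 for Srebf1, 0.02 and -0.09 for Srebf2, and -0.03 and 0.02 for Scap, with narrow intervals, for example -0.11 to 0.18 for Srebf1 at 72 hr. Stard4, a cholesterol transfer protein, was lower by 0.44 ± 0.15 at 3 hr and missed the threshold (adjusted p = 0.059).

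Of the genes that make fatty acids, Fasn differed by -0.32 ± 0.12 (adjusted p = 0.084) at 3 hr and -0.12 ± 0.12 (adjusted p = 0.526) at 72 hr. The citrate lyase Acly was at -0.11 and -0.12, the acetyl-CoA carboxylases Acaca and Acacb at -0.06 and -0.17 and at -0.16 and -0.17, and the acetyl-CoA synthetase Acss2 at 0.33 and -0.04. A dimmer second probe set of Acaca gave -0.10 and -0.52, so its probe sets disagreed on size at 72 hr. The elongase Elovl6 was at -0.14 and -0.03, and in Cebpa d/d arrays at 0 hr it was 8.08, 6.63 and 7.09, with replicate 1 above every other array. The same array was also the highest of all 18 for Adipoq and for the lipogenic gene Thrsp. The polyunsaturated desaturases Fads1 and Fads2 were at -0.33 and -0.41 and at -0.30 and -0.03. Gpam, which starts glycerolipid synthesis, was at -0.26 and -0.36, and Pcyt1a, which regulates phosphatidylcholine synthesis, at -0.09 and -0.05.

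All 6 elongation and desaturation genes had differences below 0 at 3 hr, with a median of -0.31, but 2 of 6 passed, beside 12.7% of all genes. From 3 to 72 hr their median was 0.36 and 3 of 6 passed, all higher, beside 26.7% of all genes.

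Other genes of the same pathways were also read. Of 8 further sterol synthesis genes measured, 1 passed at 3 hr, beside 12.7% of all genes, namely Tmem97, a sterol-responsive membrane protein, which rose by 1.13 ± 0.20 (adjusted p = 0.0014). Its log2 level was 6.67, 7.04 and 7.15 at 0 hr, 7.00, 8.05 and 8.49 at 3 hr and 7.14, 6.82 and 7.27 at 72 hr in control arrays. Cebpa d/d arrays gave 6.69, 6.70 and 6.70 at 0 hr, 8.51, 7.73 and 7.96 at 3 hr and 6.86, 6.54 and 6.98 at 72 hr. The 3 hr arrays were higher than all others except for replicate 1 in controls. From 3 to 72 hr Tmem97 fell by 1.02, Ggps1, which makes geranylgeranyl diphosphate, fell by 0.43 and Insig2, a homologue of Insig1, rose by 0.30. From 0 to 72 hr Insig2 rose by 0.29 and the sterol reductase Lbr fell by 0.29.

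Of 21 other fatty acid and glycerolipid genes, Elovl7 (0.65) and the choline kinase Chka (0.52) rose and Thrsp (-0.84), a lipogenic regulator, fell at 3 hr, while 18 did not pass, again beside 12.7% of all genes. At 72 hr against 0 hr, 2 rose (Acsl4 and Acsl5) and 3 fell (Hacd3, Lpin1 and Lpin2), beside 15.5% of all genes. Of 10 genes of sterol uptake, storage and efflux, 0 passed by limma at 3 hr or at 72 hr against 0 hr, with 5 and 0 at an unadjusted p under 0.05, beside 26% and 28.5% of all genes. Between 3 and 72 hr, 5 rose, among them the cholesterol exporters Abca1 (0.41) and Abcg1 (0.20), and Mylip, which marks lipoprotein receptors for degradation, fell by 0.50, so 6 of 10 passed beside 26.7% of all genes.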

How the data were processed

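The authors deposited normalised log2 values for 35557 probe sets of a mouse whole-transcript array in 18 samples. The values were made by RMA, per the submitters' processing notes. The version and parameters are not given in the sources used here. RMA corrects background, makes array distributions alike and combines probes, so global shifts in RNA content are removed, and array medians were 6.48 to 6.65. Probe sets with 1 symbol in the platform annotation (21789) were kept, 12147 had none and 1621 had several, and the brightest was taken for each of 19938 genes. Replicates correlated at 0.973 to 0.992.

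Genes were tested with limma 3.58.1 in R 4.3.3 (lmFit, eBayes, Benjamini-Hochberg over all genes within a comparison, adjusted p under 0.05) in 1 model of 6 group means, with 12 residual degrees of freedom plus 4.49 from the prior. Scripts were tested on simulated data. The members and lists were chosen with earlier results of these data known. Members that passed in at least 1 comparison are given in full, members with the smallest unadjusted p where fewer than 3 passed, and genes of the 4 further pathway lists where they passed. Groups came from sample titles. Replicate numbers were checked for pairing and did not pair the arrays. Alternatives were each array left out, array weights, a trended robust variance, array centring, low genes left out, averaged probe sets, only the compared groups, a replicate block and sex, and, chosen after seeing the data, a pair of arrays left out and a cardiac marker covariate. Promoters were from RefSeq.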

Additional observations from a re-analysis of the deposited data

How the results depend on the processing

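Of the 24 member differences that passed, all 24 still passed when arrays were centred on their median, when genes with low values were left out and when the probe sets of a gene were averaged, 23 with a trended robust variance or array weights, 21 with only the compared groups in the model, 15 with the sex covariate and 13 with the cardiac covariate, which was chosen after seeing the data. None changed sign. Counts of passing members moved by more than 1.5 times as follows. For the mean genotype difference the 0 became 1 with array weights and 3 without a pair of arrays also chosen after seeing the data, namely the one that went against its label and Cebpa d/d 72 hr replicate 1. Of all 19938 genes 61 passed there in the main fit, 431 with array weights and 228 without the pair. For 3 against 0 hr in controls the 3 became 6 without low genes, 1 with only the compared groups and 1 with the cardiac covariate. All genes passing went from 697 to 787 of the genes kept, 55 and 263. For the same times in Cebpa d/d mice the 1 became 2 with array weights, 2 with only the compared groups, 2 without that pair and 0 with the cardiac covariate. All genes went from 874 to 1214, 696, 1044 and 8. The averaged 5 became 1 with the cardiac covariate, where all genes went from 2527 to 62. For 72 against 0 hr in controls the 1 became 2 without low genes, 4 with array weights, 2 with only the compared groups and 3 without the pair. All genes passing went from 1425 to 1361 of the genes kept, 3133, 1128 and 1675. For 72 against 0 hr in Cebpa d/d mice the 0 became 5 with array weights, 1 with only the compared groups and 2 without the pair. All genes went from 958 to 1981, 737 and 1441. The averaged 4 became 10 with array weights, 1 with the sex covariate, 7 without the pair and 0 with the cardiac covariate. All genes went from 3097 to 4901, 1654, 3493 and 32, so the number of calls shifted across the array. For 72 against 3 hr the 10 became 5 with the sex covariate, where all genes went from 5321 to 3229. Leaving out 1 array at a time gave 1 to 4, 1 to 2 and 4 to 6 members for 3 against 0 hr (controls, Cebpa d/d, averaged), 1 to 3, 0 to 1 and 1 to 7 for 72 against 0 hr, 6 to 12 for 72 against 3 hr, 0 to 1 for the mean genotype difference and 0 to 0 for the other comparisons. Of these fits, the share of all genes passing is given above only for the one without control 0 hr replicate 1. The ranges are thus not read as particular to the module. The averaged 72 against 0 hr count was 1 without Cebpa d/d 72 hr replicate 2 or replicate 3 and 7 without replicate 1. The control 3 hr count was 1 without control 3 hr replicate 3. Apart from the numbers left by fewer arrays or groups, the cause was not tested. Replicate numbers did not pair the arrays: 7 of 45 same-number pairs correlated above 0.1 (r from -0.288 to 0.199), and 4 of 18 arrays correlated best with their own number. With the replicate number as a block, 2 members passed for 3 against 0 hr in controls and 8 for 72 against 3 hr, with 5 and 4 for the averaged changes from 0 hr and 0 for the genotype differences. Of all genes 528 and 5013 passed in the first 2 of these, and 2311 and 2886 in the averaged changes from 0 hr. Precision is limited by 3 arrays a group.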

Other observations

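Genes of fatty acid oxidation, the opposite of the pathways above, were also read in these arrays. Of 13 measured, 1 was higher and 4 were lower at 3 hr than at 0 hr with both genotypes averaged, beside 12.7% of all genes called in this comparison by limma. Pdk4, a kinase that turns cells from glucose to fat as fuel, rose by 1.60 ± 0.25 (adjusted p = 0.000684). Its log2 level was 7.16, 8.23 and 7.93 at 0 hr, 9.42, 10.27 and 9.78 at 3 hr and 9.63, 10.54 and 9.32 at 72 hr in control arrays. The Cebpa d/d values were 9.67, 8.88 and 9.10 at 0 hr, 10.19, 10.37 and 10.53 at 3 hr and 8.14, 9.48 and 9.11 at 72 hr. In both genotypes all 3 hr arrays lay above all 0 hr arrays. The acyl-CoA dehydrogenase Acadm fell by 0.59 ± 0.15 (adjusted p = 0.0138), and Hadha, Hadhb and Decr1 fell by 0.23, 0.39 and 0.35.

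From 3 to 72 hr, 8 of the 13 rose and 2 fell, beside 26.7% of all genes. Cpt1a, which admits fatty acids to mitochondria, rose by 0.77 ± 0.12 (adjusted p = 0.000235), and Acaa2 rose by 0.74 ± 0.14 (adjusted p = 0.000864), while Pdk4 fell by 0.72 and Ppara, the nuclear receptor of the pathway, fell by 0.27. Against 0 hr, 6 were higher at 72 hr and 0 lower, beside 15.5% of all genes. Within genotypes 4 passed in controls, beside 7.15% of all genes, and 0 by limma in Cebpa d/d mice, beside 4.8%. In the latter 2 had an unadjusted p under 0.05, beside 17.5% of all genes. All 13 had a smaller or more negative change in Cebpa d/d mice than in controls. By limma 0 of these differences passed, beside 0.0953% of all genes, with 2 at an unadjusted p under 0.05, beside 4.47%. Pdk4 rose by 2.06 ± 0.36 (adjusted p = 0.00277) in controls and changed by -0.31 ± 0.36 (adjusted p = 0.74) in Cebpa d/d mice, and the difference between these changes was -2.36 ± 0.51 (adjusted p = 0.164). The low level of control 0 hr replicate 1 enlarges both the control rise and this difference. Cardiac muscle also uses these genes, and its markers were high in Cebpa d/d arrays at 0 hr as given above. Their part in these differences was not tested.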
